A study of Canis lupus familiaris with 24 samples.

Results

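The undifferentiated canine adipose-derived mesenchymal stem cells (cAD-MSCs) of the series were examined on their own, to describe which lineage transcripts these cells contained before any induction. They are the 12 control samples of 24 in all, chosen by their labels and not by any measured value. The cells are adherent stromal cells grown from the abdominal fat of healthy dogs, kept in DMEM without induction factors. There are 4 lines, each from a different donor dog, and each line gave a control labelled day 3, a control labelled day 8 and a control labelled day 13, so that every day holds 4 samples. The samples of the definitive endoderm (DE), pancreatic endocrine (PE) and insulin-producing cell (IPC) stages are not used here. How the controls of the 3 days differed, other than by the day, is not given in the sources used here. RT-qPCR values of 26 genes were available, 7 on day 3, 6 on day 8 and 13 on day 13, and 0 genes had values on more than 1 day. 1 gene of day 8 is counted in the totals but not reported by name. None of the 26 genes is a defining marker of mesenchymal stem cells, so the values used here do not show the identity of the cells. That identity rests on the labels and on the authors' own tests. These were surface markers by flow cytometry, stemness transcripts, and differentiation towards fat, bone and cartilage.

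Mesenchymal stem cells of fat are stromal cells of mesodermal origin, and they are known for forming fat, bone and cartilage in culture. The genes measured here belong to another route. In the embryo, mesendoderm gives rise to definitive endoderm, from which gut tube, pancreatic progenitors, endocrine progenitors and islet cells arise in turn, and transcription factors specific to each step mark the cells. Endocrine progenitors are held back by Notch signalling and its target *Hes1*, and beta cells are known for insulin, glucose uptake and the incretin response.

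Each gene was measured as a threshold cycle (Ct), the PCR cycle at which its signal crosses a set level, and a later cycle means that less template was present. This Ct was deposited by the authors together with a linear ratio, in which the gene is divided by *Gapdh*, the reference transcript of that sample. The level of a transcript is given here as that ratio times 1000000, in parts per 1000000 of *Gapdh* (ppm *Gapdh*), and its distance from *Gapdh* as ΔCt, in cycles. A level compares amplified cDNA segments and does not grow with the length of the transcript. It assumes that the template doubles in each cycle for every primer pair, and the length of the segment, which affects the SYBR Green signal, was not corrected for. In these bulk samples, fewer cells containing a transcript and less of it per cell cannot be told apart.

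The levels ranged over several orders of magnitude on each day. The highest mean levels belonged to *Gata6* on day 3, *Hes1* on day 8 and *Epac2* on day 13, with 318206, 216363 and 164525 ppm *Gapdh* as geometric means. With the median of the *Gapdh* Ct values that the genes of a sample imply, *Hes1* had 109939. At the other end, 11 of the 26 genes had a geometric mean under 100 ppm *Gapdh*, 1 on day 3, 3 on day 8 and 7 on day 13. In 9 genes every control had a Ct of 35 cycles or more, and in 5 genes every control had a Ct below 30 cycles.

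**Figure D1:**
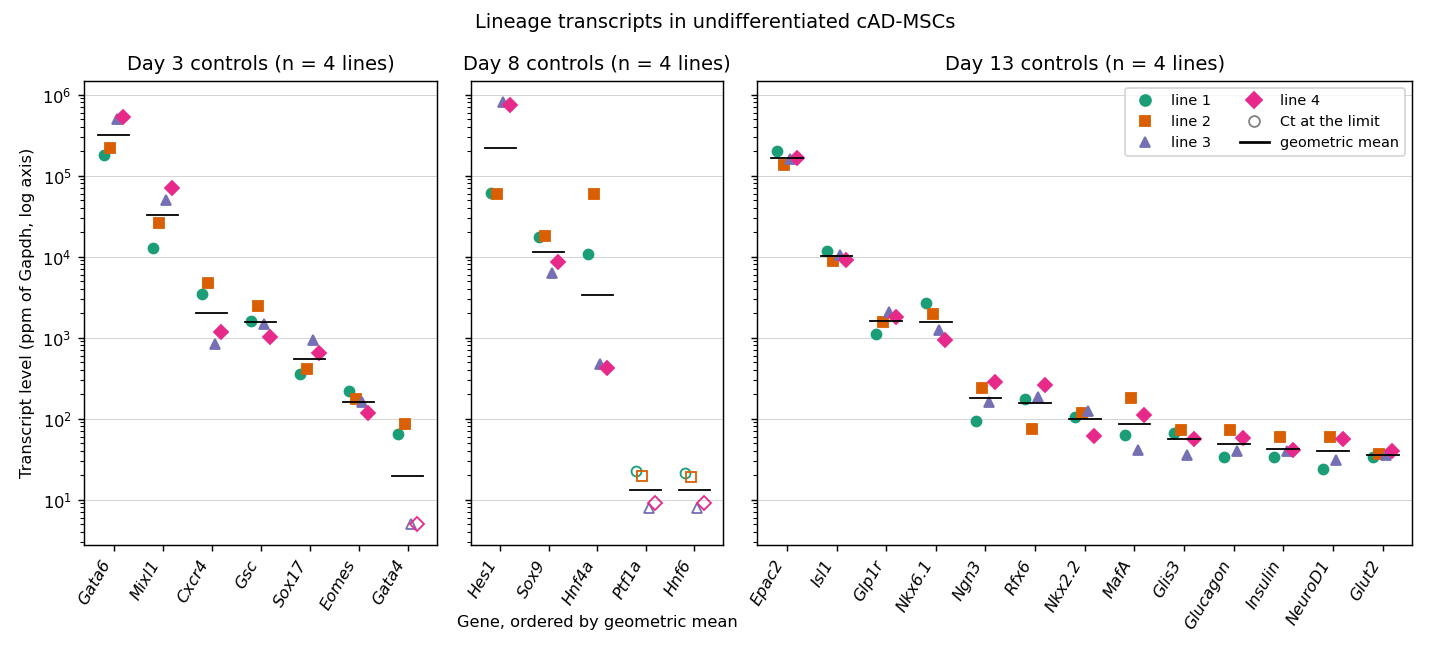
Level of 25 named genes in each undifferentiated control, ppm *Gapdh* on a log axis, in 3 panels by day. Points are the 4 cell lines, open points have a Ct within 0.1 cycles of the highest Ct of 40 and show the most that the level could be, and black bars are geometric means. *Gata6*, *Hes1* and *Epac2* stand highest on their days, and most genes of day 13 lie under 1000 ppm *Gapdh*.

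Of the mesendoderm genes, *Mixl1*, a homeobox factor of the primitive streak, was the most abundant in the controls of day 3. Its level was 12703 ppm *Gapdh* in line 1, 26234 in line 2, 50077 in line 3 and 69543 in line 4. Line 4 thus had 5.47 times the level of line 1, and the mean ΔCt was 4.93 ± 1.08 cycles (SD, n = 4). *Gsc*, which encodes the homeobox factor goosecoid of the embryonic organizer, had 1615.9, 2431.2, 1481.2 and 1030.3 ppm *Gapdh* in lines 1 to 4. Its highest line was line 2 and its lowest line 4, with a ΔCt of 9.32 ± 0.51 cycles (SD, n = 4). *Eomes*, a T-box factor needed for mesendoderm and endoderm, had 216.3, 174.0, 159.1 and 116.4 ppm *Gapdh*. It differed little between lines, by 1.86 times from lowest to highest, although its Ct was late at 34.97 ± 0.56 cycles. The 3 mesendoderm genes did not overlap each other in any control. *Mixl1* was 21.0 times as high as *Gsc* and *Gsc* was 9.63 times as high as *Eomes* (geometric means over 4 lines, each with p = 0.0286 in the exact Mann–Whitney U test).

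The DE genes held both ends of the order on day 3. *Gata6*, a zinc finger factor that is also known from mesodermal tissues, had levels of 181401, 217436, 497573 and 522401 ppm *Gapdh* in lines 1 to 4. Lines 3 and 4 were the higher, and the Ct of 23.33 to 24.93 cycles was among the earliest of the series of controls. Its relative *Gata4*, known from endoderm and heart, had 64.5 ppm *Gapdh* in line 1 and 86.7 in line 2, with Ct values of 35.92 and 36.23 cycles. In lines 3 and 4 the Ct of *Gata4* was 40 cycles and the level at most 5 ppm *Gapdh*. *Gata4* was therefore detected in 2 of 4 lines, and its mean over the lines, 19.3 ppm *Gapdh*, is an upper limit, which ran from 11.7 to 30.4 with 1 line left out.

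*Cxcr4*, the chemokine receptor used as a surface marker of definitive endoderm and expressed by many stromal and blood cells, had levels of 3421.5 and 4697.2 ppm *Gapdh* in lines 1 and 2. In lines 3 and 4 it had 830.0 and 1188.4. The highest line had 5.66 times the level of the lowest, and the ΔCt was 8.97 ± 1.20 cycles (SD, n = 4). *Sox17*, an HMG box factor that directs endoderm, had 353.0, 408.4, 933.4 and 648.8 ppm *Gapdh* in lines 1 to 4. Here line 3 was highest and line 1 lowest, whereas line 3 was the lowest for *Cxcr4*. In line 3 the level of *Sox17* exceeded that of *Cxcr4*, and the 2 genes overlapped (exact Mann–Whitney U test, p = 0.0571).

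On day 3 the order of mean levels was *Gata6*, *Mixl1*, *Cxcr4*, *Gsc*, *Sox17*, *Eomes* and *Gata4*. Among the 21 pairs of these genes, the 4 controls of the one did not overlap with the 4 controls of the other in 19, which is 90.5% of the pairs tested. With 4 against 4 values, p = 0.0286 is the smallest that the exact Mann–Whitney U test can give, and after Benjamini-Hochberg adjustment over the 114 pairs of all days these pairs had an adjusted p of 0.0388. Genes measured in the same lines are not independent groups, and counted within lines the order was alike in all 4 lines in these 19 pairs and no others. Of the 6 neighbouring pairs in the order, 5 did not overlap. The exception was *Cxcr4* over *Gsc*, with a mean ratio of 1.28 (exact Mann–Whitney U test, p = 0.886).

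In the controls of day 8, *Hes1*, a bHLH repressor induced by Notch, had the earliest Ct. It was 27.54, 27.31, 26.35 and 26.57 cycles in lines 1 to 4, a spread of 0.57 cycles (SD, n = 4). The deposited ratios spread far more, with 61403 and 58951 ppm *Gapdh* in lines 1 and 2 and 807302 and 749930 in lines 3 and 4. The ΔCt of *Hes1* was 2.21 ± 2.13 cycles (SD, n = 4), and line 3 had 13.7 times the level of line 2. The *Gapdh* Ct implied by the Ct and ratio of *Hes1* was 23.51, 23.23, 26.04 and 26.15 cycles, whereas the other genes of the same samples, apart from *Hnf4a*, gave 24.49, 24.27, 23.03 and 23.23 cycles. With the median *Gapdh* Ct over the 6 genes in place of its own, *Hes1* ranged from 99329 to 121799 ppm *Gapdh*, or by 1.23 times, and its geometric mean was 109939 in place of 216363. By the deposited ratio, the mean was 329242 and 333745 without line 1 or 2 and 139497 and 142967 without line 3 or 4. The reference sequence named for *Hes1* in the table is that of the dingo.

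*Sox9*, an HMG box factor of pancreatic progenitors that also drives cartilage formation, had 17368 and 17751 ppm *Gapdh* in lines 1 and 2 and 6341.7 and 8602.8 in lines 3 and 4. Lines 1 and 2 were the higher, by up to 2.80 times. The Ct of *Sox9* was 30.33 cycles in both line 1 and line 3, and 30.09 cycles in both line 2 and line 4, so the Ct values of one pair of lines repeat those of the other. Between lines with the same Ct, the whole difference in the level of *Sox9* was a difference in *Gapdh* Ct.

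*Hnf4a*, a nuclear receptor of gut and liver endoderm, differed most between lines of all 26 genes. It had 10834 ppm *Gapdh* in line 1, 58951 in line 2, 478.8 in line 3 and 419.6 in line 4, and the highest line had 140.5 times the level of the lowest. The Ct was 30.22 and 30.03 cycles in lines 1 and 2, and 35.04 and 35.63 cycles in lines 3 and 4, so that the difference was present before division by *Gapdh*. The ratio of line 2 is identical to 7 decimals to that of *Hes1* in the same sample, although the Ct values of the 2 genes were 30.03 and 27.31 cycles. The geometric mean of *Hnf4a* was 3366 ppm *Gapdh*. It was 2279 without line 1, 1296 without line 2, 6447 without line 3 and 6737 without line 4. With the median *Gapdh* Ct it ranged from 186 to 18753 ppm *Gapdh*.

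*Hnf6* (ONECUT1), a homeobox factor of the foregut and early pancreas, was at the detection limit in 4 of 4 lines, with Ct values of 39.99, 39.97, 40 and 40 cycles. Its level was at most 21.6, 18.8, 7.8 and 9.0 ppm *Gapdh* in lines 1 to 4. *Ptf1a*, a bHLH factor of pancreatic progenitors and acinar cells, was likewise at the limit in 4 of 4 lines, from 39.90 to 40 cycles, and had at most 22.4, 19.8, 7.8 and 9.0 ppm *Gapdh*. The higher bounds of lines 1 and 2 follow the later *Gapdh* Ct of those controls, and the values of these genes have no order among lines.

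On day 8 the order of the named genes was *Hes1*, *Sox9*, *Hnf4a*, then *Ptf1a* and *Hnf6* at the limit. Of the 15 pairs of the 6 genes, 10 did not overlap, which is 66.7% of the pairs tested, and 9 of these 10 hold a gene with a value at the limit. The remaining pair was *Hes1* over *Sox9*, with a mean ratio of 19.0 (exact Mann–Whitney U test, p = 0.0286), or 9.63 with the median *Gapdh* Ct. *Sox9* and *Hnf4a* overlapped (exact Mann–Whitney U test, p = 0.686), with *Hnf4a* above *Sox9* in line 2. *Hnf4a* also overlapped with *Hes1* through the identical ratio in line 2, and with the median *Gapdh* Ct the 2 genes did not overlap.

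On day 13 the genes of glucose and incretin sensing held both ends of the order. *Epac2* (RAPGEF4), an exchange factor through which cAMP enhances insulin release and which is also known from brain and adrenal gland, had 203654, 133765, 162580 and 165435 ppm *Gapdh* in lines 1 to 4. It was the most abundant gene of the day in every line, with a Ct of 24.41 to 24.89 cycles. *Glp1r*, the receptor of the incretin GLP-1, had 1096.8, 1548.3, 2091.6 and 1791.1 ppm *Gapdh*. Line 1 was lowest and line 3 highest, with a ΔCt of 9.30 ± 0.40 cycles (SD, n = 4). *Glut2* (SLC2A2), the glucose transporter of beta cells and liver, had 33.2, 36.3, 35.1 and 39.3 ppm *Gapdh*, the lowest mean of the day. Its Ct was later than that of the other 12 genes in every control, from 37.15 to 37.65 cycles. The SD of its ΔCt was 0.102 cycles, the smallest of all genes by the deposited ratio, but with the median *Gapdh* Ct it was 0.217 cycles, above the 0.160 cycles of *Hes1* and the 0.162 cycles of *Isl1*. *Epac2* was 4582 times as high as *Glut2*, and *Glp1r*, which shares its *Gapdh* value with *Glut2*, was 44.2 times as high (geometric means over 4 lines, p = 0.0286 for each by the exact Mann–Whitney U test). With the median *Gapdh* Ct of the day, the level of *Glut2* was 19.5 ppm *Gapdh* in place of 35.9, and *Epac2* was 7058 times as high.

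Among the endocrine transcription factors, *Isl1* and *Nkx6.1* stood apart from the other 6. *Isl1*, a LIM homeobox factor of all islet cell types and of motor neurons, had 11739, 8944.8, 10577 and 9199.7 ppm *Gapdh* in lines 1 to 4. The lines differed by no more than 1.31 times. *Nkx6.1*, a homeobox factor of beta cells, had 2695.1, 1938.0, 1241.0 and 922.9 ppm *Gapdh*, with line 1 highest and line 4 lowest. *Isl1* was 6.43 times as high as *Nkx6.1* (exact Mann–Whitney U test, p = 0.0286). *Nkx6.1* and *Glp1r* overlapped and had nearly the same mean, 1564 and 1588 ppm *Gapdh* (exact Mann–Whitney U test, p = 1). With the median *Gapdh* Ct their order was reversed, at 1607 for *Nkx6.1* and 861 for *Glp1r*, and they still overlapped.

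*Ngn3* (NEUROG3), the bHLH factor that starts endocrine differentiation, had 93.1, 239.3, 160.8 and 280.6 ppm *Gapdh* in lines 1 to 4. *Rfx6*, a winged helix factor that acts after *Ngn3*, had 173.4, 74.6, 184.1 and 258.4. Line 4 was highest for both genes, while the lowest was line 1 for *Ngn3* and line 2 for *Rfx6*. *Nkx2.2*, a homeobox factor of endocrine progenitors and islets, had 105.6, 118.2, 124.3 and 61.6 ppm *Gapdh*. Line 4 was the lowest here, with the latest Ct, 35.40 cycles against 34.45 to 34.61 cycles in the other lines. *NeuroD1*, a bHLH factor induced by *Ngn3*, had 23.7, 59.8, 30.7 and 55.5 ppm *Gapdh*, the lowest mean of the 8 transcription factors. Lines 2 and 4 were above lines 1 and 3 for both *NeuroD1* and *Ngn3*. By the deposited ratio, the same held for *MafA*, *Glut2*, *Insulin* and *Glucagon*, so the pattern was not particular to these genes.

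*MafA*, the basic leucine zipper factor that activates the insulin gene in mature beta cells, had 62.0, 181.3, 41.1 and 110.7 ppm *Gapdh* in lines 1 to 4. Its ΔCt was 13.53 ± 0.94 cycles (SD, n = 4), the widest spread of the day by the deposited ratio. The SD of *MafA* was 0.751 cycles with the median *Gapdh* Ct, and *Ngn3* and *Rfx6* spread more, with 0.878 and 0.869 cycles. *Glis3*, a zinc finger factor that also acts on the insulin gene, had 66.4, 72.6, 35.1 and 55.6 ppm *Gapdh*. Its Ct was 35.38 cycles in lines 1 and 2 and 36.15 cycles in lines 3 and 4, so that only 2 distinct Ct values stood behind 4 samples. The Ct of *Glut2* repeats as well, at 37.38 cycles in lines 1 and 2, and lay exactly 2, 2, 1 and 1.5 cycles after that of *Glis3* in lines 1 to 4. In line 3 the ratios of *Glut2* and *Glis3* are identical, 35.1 ppm *Gapdh*, although their Ct values differ. How values came to repeat in the deposited tables was not tested.

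The hormone transcripts were close to the lower end of the order. *Insulin* had 33.4, 60.1, 40.1 and 41.1 ppm *Gapdh* in lines 1 to 4, and its Ct was 36.98, 36.01, 36.62 and 36.46 cycles. *Glucagon*, the hormone of alpha cells, had 33.4, 73.1, 39.4 and 57.1 ppm *Gapdh*, with Ct values of 36.98, 35.73, 36.65 and 35.98 cycles. Both were lowest in line 1 and highest in line 2, and they overlapped (exact Mann–Whitney U test, p = 0.971). In line 1 the Ct of *Insulin*, *Glucagon* and *NeuroD1* was the same, 36.98 cycles, and so was the ratio of the 2 hormones, 33.4 ppm *Gapdh*. The highest Ct was 40 cycles, so that both hormones crossed the threshold in 4 of 4 lines, 3.02 to 3.99 cycles before the limit for *Insulin* and 3.02 to 4.27 cycles before it for *Glucagon*. Whether so late a signal is product of these transcripts was not tested, since melting curves and controls without template are not given in the sources used here.

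The order of day 13 was *Epac2*, *Isl1*, *Glp1r*, *Nkx6.1*, *Ngn3*, *Rfx6*, *Nkx2.2*, *MafA*, *Glis3*, *Glucagon*, *Insulin*, *NeuroD1* and *Glut2*. Of the 78 pairs, 55 did not overlap, which is 70.5% of the pairs tested, and counted within lines the order was alike in all 4 lines in 65. The separate neighbours were *Epac2* over *Isl1*, *Isl1* over *Glp1r* and *Nkx6.1* over *Ngn3*, with mean ratios of 16.4, 6.33 and 8.78 (p = 0.0286 for each by the exact Mann–Whitney U test). *Isl1* was 12.0 times as high as *Glp1r* with the median *Gapdh* Ct, by which also *Rfx6* came before *Ngn3* and *NeuroD1* before *Insulin* in the order. The other 9 of 12 neighbouring pairs overlapped, with exact p-values from 0.2 to 1, so that from *Ngn3* downwards no gene was separate from the next. *Glut2* overlapped with *Glis3*, *Glucagon*, *Insulin* and *NeuroD1* by the ratio, but with 0 of the 12 other genes by raw Ct.

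**Figure D2:**
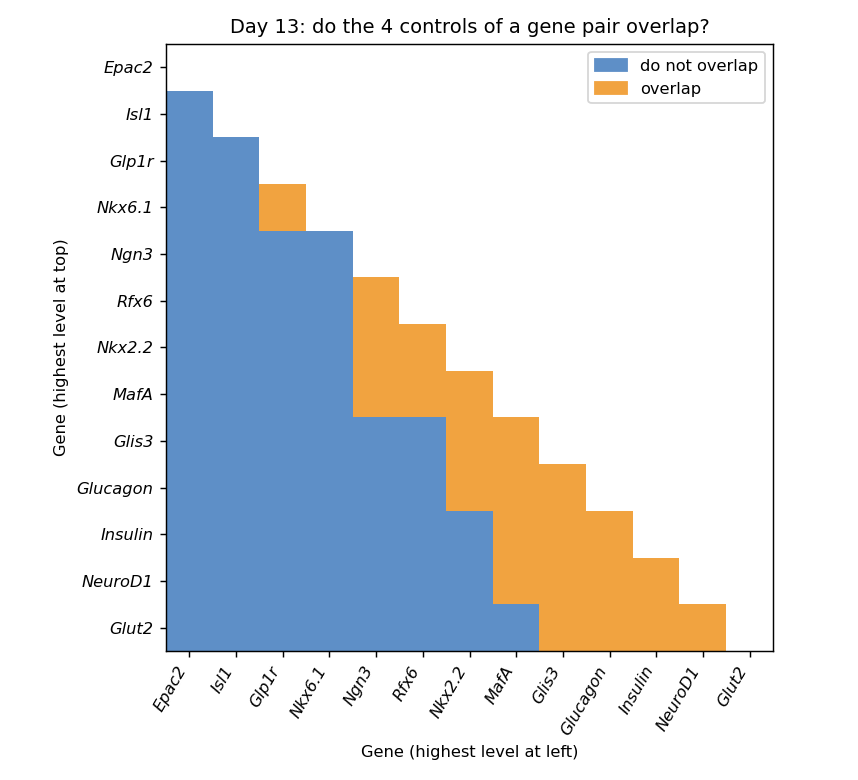
Pairs of the 13 genes of day 13, ordered by level from *Epac2* to *Glut2* on both axes, with 4 undifferentiated controls per gene. Blue squares mark the 55 pairs whose ratios to *Gapdh* did not overlap and orange squares the 23 pairs that did. The 4 genes of highest level are separate from all genes below *Nkx6.1*, and the orange squares run along the diagonal from *Ngn3* to *Glut2*.

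By function, the 8 endocrine transcription factors had mean levels from 39.4 to 10054 ppm *Gapdh* with a median of 125, the 2 hormones 42.6 and 48.4, and the 3 genes of glucose and incretin sensing from 35.9 to 164525, beside a median of 98.9 over the 13 genes of the day. On day 3 the median was 1565 for the 3 mesendoderm genes and 1041 for the 4 DE genes, beside 1565 over the 7 genes. These medians compare genes chosen for the study with one another, and say nothing of other transcripts of the cells.

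The limit of detection touched 12 of the 104 Ct values. The highest Ct was 40 cycles, although the labels give 45 cycles for the PCR, and values within 0.1 cycles of 40 were taken as being at the limit. There were 2 such values on day 3, both of *Gata4*, 10 on day 8, 8 of them of *Hnf6* and *Ptf1a*, and 0 of 52 on day 13. Day 13 nevertheless had many late values, since 26 of its 52 Ct values were 35 cycles or more. No sample depth exists for such data, and the precision of a late Ct depends on the number of replicate wells, which is not given in the sources used here.

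The median SD of the ΔCt over the 4 lines was 0.793 cycles on day 3, 1.14 cycles on day 8 and 0.467 cycles on day 13. The median SD of the raw Ct was 0.792, 0.355 and 0.467 cycles, so that day 8 was highest by ΔCt and lowest by Ct. The days have no gene in common, so these medians compare different genes. On day 8, 10 of 24 values were at the limit. From the lowest to the highest line, 6 of 26 genes differed by less than 2 times and 7 by more than 4 times. The latter included *Mixl1*, *Cxcr4* and *Gata4* on day 3, *Hes1* and *Hnf4a* on day 8, and *MafA* on day 13. *Hes1* and *MafA* were under this mark with the median *Gapdh* Ct, at 1.23 and 3.22 times, while *Ngn3* and *Rfx6* passed it, at 4.22 and 4.20 times. Across the 26 genes, which share samples and are not independent, the SD of the ΔCt had a Spearman's rho of -0.024 with the mean Ct, and of -0.35 across the 22 genes with no value at the limit.

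After division by *Gapdh*, the SD over the lines was smaller for 14 of the 26 genes and larger for 12. On day 8 the SD was larger after division for 5 of 6 genes. For *Hnf6* and *Ptf1a* this outcome was fixed in advance, since their Ct was at the limit in every line and could hardly spread. The Ct values of *Sox9* repeat between lines. For *Sox9* it went from 0.139 to 0.743 cycles, for *Hnf6* from 0.0141 to 0.740 cycles and for *Ptf1a* from 0.0506 to 0.776 cycles, close to the SD of 0.730 cycles of the *Gapdh* Ct that these genes share. On day 13 the SD was smaller after division for 9 of 13 genes, among them *Glut2* with 0.204 and 0.102 cycles.

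**Figure D3:**
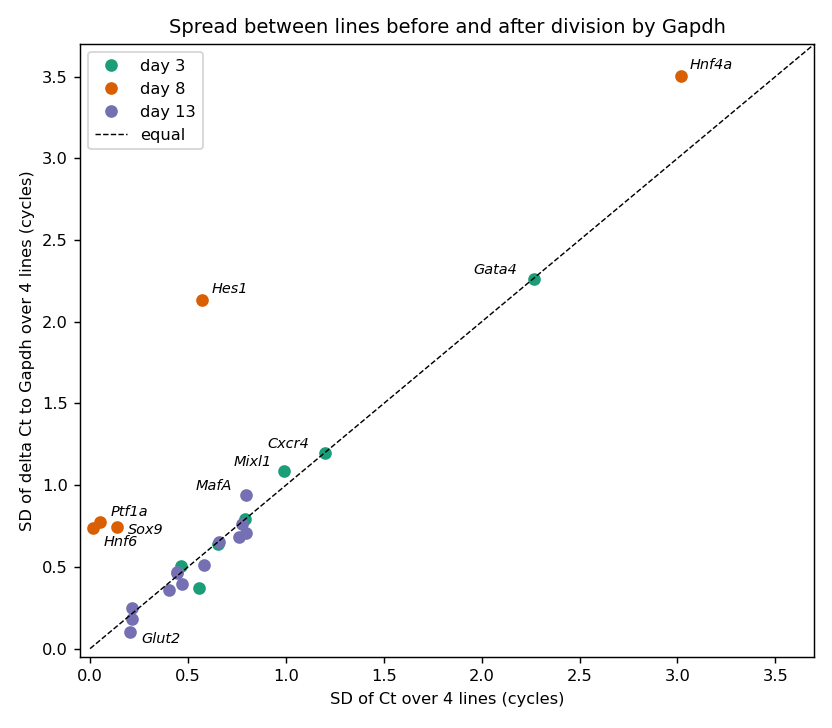
SD over the 4 lines of the Ct (x axis, cycles) and of the ΔCt to *Gapdh* (y axis, cycles) for 25 named genes, coloured by day, with the dashed line where both are equal. Most genes of days 3 and 13 lie near the line, while *Hes1*, *Sox9*, *Hnf6* and *Ptf1a* of day 8 lie above it. The Ct of *Hnf6* and *Ptf1a* was at the limit in every line, so that it could hardly spread.

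The lines resembled each other unequally. On day 3 the median absolute difference in ΔCt over the 7 genes was 0.427 cycles between lines 1 and 2 and 0.474 cycles between lines 3 and 4, while the other 4 pairs of lines differed by 1.19 to 1.53 cycles. Without *Gata4*, which was at the limit in 2 lines, these values were 0.386 and 0.496 cycles for the same 2 pairs and 1.06 to 1.43 cycles for the others. For day 8 no such comparison is given, because 10 of its 24 values were at the limit and the Ct values of *Sox9* repeat between lines. For *Hnf6* and *Ptf1a* the difference between lines thus nearly restates that of *Gapdh*. For *Sox9* it does so only between lines 1 and 3 and between lines 2 and 4, which share a Ct. On day 13 the 6 pairs of lines lay between 0.325 cycles, for lines 1 and 3, and 0.708 cycles, for lines 1 and 4, and lines 1 and 2 differed by 0.606 cycles. As the days have no gene in common, the change of this pattern between days cannot be told apart from a change of genes.

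*Gapdh* was the only transcript that could be followed over the 3 days, and its Ct was derived as the Ct of a gene plus log2 of its ratio. With the median over the genes of a sample, it was 22.00, 22.74, 22.39 and 22.39 cycles in lines 1 to 4 on day 3. On day 8 it was 24.48, 24.27, 23.03 and 23.24 cycles, and on day 13 it was 21.62, 21.65, 21.83 and 21.88 cycles. By this median, the *Gapdh* signal of every line was latest on day 8 and earliest on day 13. The means were 22.4 ± 0.300, 23.8 ± 0.727 and 21.7 ± 0.132 cycles (SD, n = 4). The days differed (exact two-sided Kruskal–Wallis test, p = 0.000173), but this test ignores that the same lines were sampled on each day. With the line as a block, p was 0.00463 (exact Friedman test). Each p-value is the smallest that its test can give here. Between days 3 and 8 the *Gapdh* Ct was later by 1.38 cycles, and the difference of day 13 from day 8 was -2.01 cycles, each in 4 of 4 lines and without overlap (exact Mann–Whitney U test, adjusted p = 0.0286 over 3 pairs). Day, culture and PCR run cannot be told apart in this difference.

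The derived *Gapdh* Ct also differed between genes of the same sample. On day 3 all 7 genes gave a single value per sample, within 0.01 cycles. On day 8 there were 3 sets, 1 of 4 genes, among them *Hnf6*, *Ptf1a* and *Sox9*, and those of *Hnf4a* and *Hes1* alone, and within a sample the genes lay 0.977 to 3.01 cycles apart. On day 13 there were 5 sets, 1.01 to 1.60 cycles apart. The set of *Glut2* and *Glp1r* had the latest *Gapdh* Ct, 22.63 cycles on average, and exceeded that of *Glis3* and *MafA* by 0.997, 1.00, 1.00 and 0.998 cycles in lines 1 to 4. The difference between days 3 and 13 depended on the set. With the median over genes, *Gapdh* on day 13 differed by -0.64 cycles and did not overlap with day 3 (exact Mann–Whitney U test, adjusted p = 0.0286), but this held for only 2 of the 5 sets of day 13, and across the sets the difference ran from -0.95 to 0.24 cycles. The differences of day 8 from day 3 were free of overlap for 3 of 3 sets, and those of day 13 from day 8 for 15 of 15 combinations of sets.

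**Figure D4:**
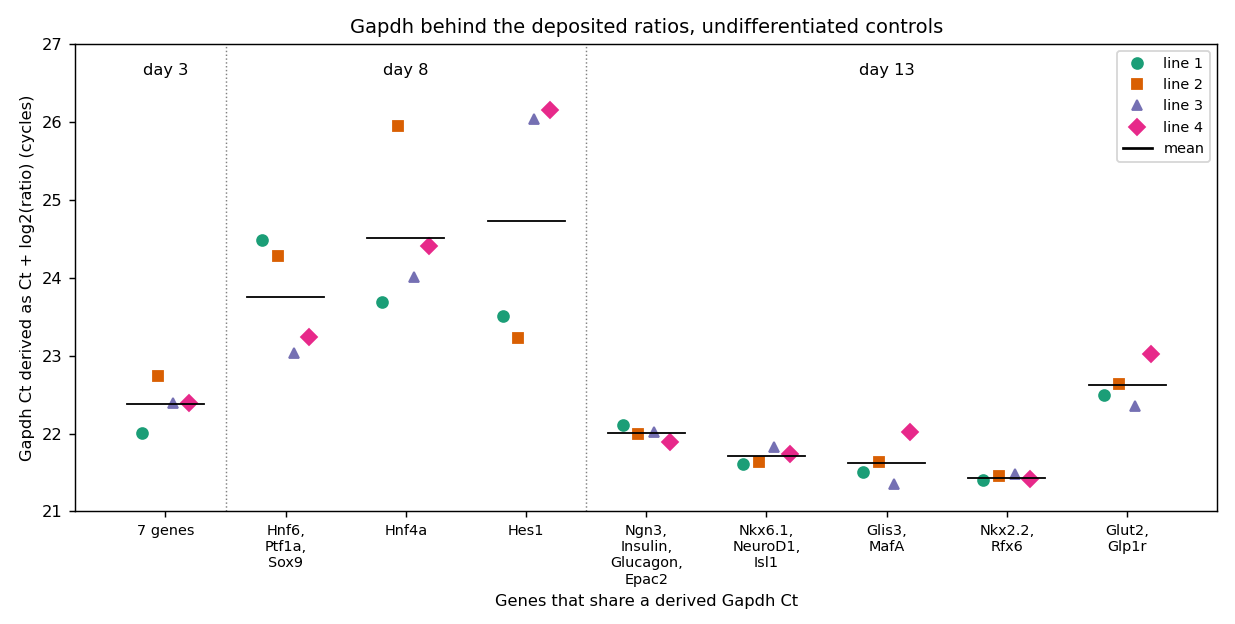
Ct of *Gapdh* in the undifferentiated controls, derived from each deposited Ct and ratio (y axis, cycles), by the genes that share a value and by day (x axis). Points are the 4 cell lines and black bars their mean, and the unnamed gene of day 8 belongs to the first set of that day. The sets of day 8 lie above that of day 3, and on day 8 the lines have different orders in the 3 sets.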

How the data were processed

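RNA of cAD-MSCs was extracted with TRIzol and Direct-zol, transcribed with ImProm-II and amplified with SYBR Green by the authors, who deposited the Ct in cycles and, separately, the linear ratio of each gene to *Gapdh* (2 to the power of −ΔCt). The ratio has 7 decimals, so that rounding adds at most 0.0144 cycles. A table with the authors' fold changes of differentiated samples was not used. Primer efficiency, replicate wells and the threshold are not given in the sources used here.

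The 12 undifferentiated controls were assigned to day and line by the day and cell number in their labels. ΔCt was calculated as −log2 of the ratio, and the *Gapdh* Ct as Ct minus ΔCt. *Gapdh* values within 0.1 cycles in all 4 lines formed a set. Groups were compared with the exact Kruskal–Wallis and Mann–Whitney U tests, both two-sided, the tests that the study's methods name, with Benjamini-Hochberg adjustment. Controls with the same cell number in their labels were taken to be the same line, and so to be paired. No gene has values on more than 1 day, so the pairing could be used only for *Gapdh*, and for the order of genes within lines. Named genes were all genes of the tables, except 1 that is not reported here. The members, lists and tests were chosen with earlier results of these data known. Official symbols of 25 of the 26 genes were found in RefSeq, and no genome positions are given because no build is named. The lines come from separate dogs, so that the spread between samples of a day includes that between donors. The Kruskal–Wallis and Mann–Whitney U tests treat values of the same lines as independent groups, so their p-values take no account of the pairing.

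Python 3.11.15, numpy 2.4.6, scipy 1.17.1, pandas 2.3.3 and matplotlib 3.10.9 were used, and the tests were first tested on simulated data. Alternatives were raw Ct, a common *Gapdh* Ct, pairing by line, adjustment, other limits of detection, and each line left out.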

Additional observations from a re-analysis of the deposited data

Results flagged for a closer look

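The Ct of *Nkx2.2* in the control of line 4 on day 13 was 35.4 cycles, 0.79 cycles later than the latest of the other 3 lines, which lay between 34.45 and 34.61 cycles. It stood out because this gap was 0.832 of the range of the 4 lines, just above the critical value of Dixon's test for 4 samples. It was the only one of 55 sets of 4 values to do so, and chance gives about 1 in 20. The ΔCt of *Nkx2.2* did not stand out in this way.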

How the results depend on the processing

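The difference of the *Gapdh* Ct between the 3 days kept an exact p-value under 0.05 in all 7 alternatives, 0.00463 with the line as a replicate block (exact Friedman test), 0.00121 with the largest *Gapdh* set of each day and 0.00357 without any 1 line. Between days 3 and 13, the largest *Gapdh* set of each day gave a difference of -0.38 cycles with overlap (exact Mann–Whitney U test, p = 0.114), with a mean *Gapdh* Ct of 22.00 cycles on day 13 in the set of *Ngn3*, *Insulin*, *Glucagon* and *Epac2*. With 1 line left out, the differences were 1.01 to 1.62 cycles for day 8 against day 3, -0.72 to -0.49 cycles for day 13 against day 3 and -2.28 to -1.73 cycles for day 13 against day 8, without overlap, where the exact p cannot go below 0.1.

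The counts of gene pairs without overlap stayed within 1.5 times of those given under all alternatives on day 3 and, apart from the last one below, on day 13, and with pairing by line they were 19, 11 and 65 on days 3, 8 and 13. On day 8, 1 of 3 pairs was left without overlap when genes at the limit were left out. Without *Sox9*, *Hnf4a* and *Hes1*, whose values repeat, an alternative chosen after the data were seen, 0 of 3 pairs of day 8 had an exact Mann–Whitney p under 0.05. The 3 genes that remain there all hold values at the limit. Leaving out every gene of day 13 with a repeated value (*Glis3*, *Glut2*, *Insulin*, *Glucagon* and *NeuroD1*), also chosen after the data were seen, left 21 of 28 pairs without overlap. With a threshold of 35 cycles, 7 values on day 3 and 26 on day 13 would be at the limit, and with 1 line left out the 2 values of day 3 were 1 to 2. The median SD on day 8 was 0.355 cycles by raw Ct, 0.756 cycles with the median *Gapdh* Ct and 2.13 cycles without the genes at the limit. With the median *Gapdh* Ct, the level of 23 of 26 genes moved by less than its SD, while *Glut2*, *Glp1r* and *Epac2* moved by 0.88, 0.88 and 0.26 cycles towards lower levels. *Hes1* and *Hnf4a* moved by 0.98 and 0.76 cycles towards lower levels, less than their SDs over the lines by the deposited ratio. For *Hes1* that SD, 2.13 cycles, includes the spread of its own implied *Gapdh* Ct. With the median *Gapdh* Ct the SD of *Hes1* was 0.160 cycles, which its move exceeded, and that of *Hnf4a* was 3.73 cycles. Leaving out any 1 line moved 0 of 26 levels by more than the SD. This outcome was fixed in advance, since dropping 1 of 4 values cannot move their mean that far. The largest moves of a level among the named genes were 2.60 times for *Hnf4a*, 1.65 times for *Gata4* and 1.55 times for *Hes1*.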
